A study of Sus scrofa domesticus with 8 samples.

Results

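The transcripts of 119 ion channel genes were followed in pig ovarian granulosa cells over 6 days of culture, at 0, 48, 96 and 144 h. The genes are those whose symbol in the array's platform annotation starts with the stem of a channel family: KCN for potassium channels and their partners, SCN for sodium channels, CACN for voltage-gated calcium channels, CLCN and CLIC for chloride channels and transporters, TRPA, TRPC, TRPM and TRPV for transient receptor potential channels, P2RX for ATP-gated channels and ANO for anoctamins. They are 119 of 10905 named genes, and 126 of 27558 features on the array. The 7 genes with 2 features (CACNA1A, KCNAB3, KCNK5, KCNN4, KCNQ5, KCNS2 and SCN8A) are represented by the feature with the higher mean over the 8 arrays. The rule reads symbols and no measured value, but it was set with earlier results of these data known. The TRPC stem also takes in TRPC4AP, a TRPC4-associated protein that is no channel itself.

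Granulosa cells line the ovarian follicle, surround the oocyte and answer the pituitary gonadotropins. The study took them from crossbred Landrace gilts, 43 in all, whose median age was 170 days and median weight 98 kg, and kept them in Dulbecco's modified Eagle's medium with 2% fetal bovine serum and 4 mM L-glutamine at 37 °C and 5% CO2. RNA of 2 samples at each time was hybridised to 8 Affymetrix whole-transcript arrays, and the groups were 0 h, which is the cells at the start of culture, and 48 h, 96 h and 144 h of culture. No label gives a genetic change, a hormone treatment or an untreated parallel group. Time in culture, the makeup of the cells and any batch aligned with time cannot be told apart in a difference between times. The labels do not tell whether both arrays of 1 time stand for different animals, pools or dishes. Each p-value thus sets a difference against the spread between arrays of the same time and nothing wider, and that spread may be technical. It was pooled over the 4 times and drawn toward a value estimated from all features. The number of arrays limits the precision.

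Ion channels are membrane proteins that let selected ions pass down their gradients. Potassium channels hold the membrane potential negative, voltage-gated sodium and calcium channels open when it rises, and chloride channels and anoctamins move anions, or lipids in some anoctamins. TRP and P2X channels let cations in after chemical, physical or purinergic signals, and calcium that enters acts as a second messenger. Granulosa cells are not classed as excitable, yet potassium and calcium currents have been recorded from them, pig granulosa cells included, and membrane potential and calcium entry have been tied to their steroid output.

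Values are log2 intensities after robust multi-array averaging by the authors, and each difference below is a later time minus an earlier one, with its SE from limma's fit over the 8 arrays. A gene is called higher or lower where limma's moderated test gave an adjusted p under 0.05 over all 27558 features. The 2 arrays of a time correlated at 0.993, 0.993, 0.997 and 0.985 over all features at 0, 48, 96 and 144 h. Over the 119 genes, the replicate difference had its widest SD at 144 h, 0.278, against 0.171 to 0.211 at the other times, and the largest single gap was 0.924, for CACNG4 at 144 h. Levels of different genes were not set against each other, because each feature has probes of its own.

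Many of these genes gave dim signals. The median ion channel gene had a log2 intensity of 3.56 to 3.79 on the 8 arrays, where the median of all features was 4.52 to 4.63 and the lower quartile 3.13 to 3.25. A gene was counted as above the dim range where at least 2 arrays exceeded their own 40th percentile. By that measure 59 of the 119 genes (49.6%) lay above it, where 69.1% of all named genes did, and 60 did not. On every array 21 of the 119 genes lay below the array's lower quartile. The matching shares of all features were not counted for either measure, so the 21 genes are not shown to exceed the background. No detection call was used, so a level near the lower quartile is not shown to lie above background, and a difference to such a level is printed without a fold.

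The labelled cell type was checked against marker genes. Of all features, 15.2% were called higher and 14.8% lower than at 0 h at 48 h, and 19% and 22.3% at 96 h. At 144 h these shares were 15.4% and 16.7%. No marker count was tested against them, and a count of 1 or 2 in a small set is not set apart from them. Of 10 granulosa markers 6 had a named feature, and FSHR, CYP19A1, FOXL2 and INHA had none. The summed log2 level of those 6 was 46.76 to 46.86 at 48 h, 34.07 to 35.02 at 96 h and 33.65 to 35.15 at 144 h, against 58.72 to 59.24 at 0 h, and 5, 6 and 6 of them were lower. All 3 measured smooth muscle markers (ACTA2, CNN1 and TAGLN) were higher at each later time, with sums of 28.43 to 28.49, 32.87 to 32.99 and 32.76 to 33.27, against 18.23 to 18.48 at 0 h. Of 6 oocyte markers 5 were lower, with sums of 20.81 to 21.30, 20.46 to 20.88 and 20.13 to 20.18, against 29.87 to 31.28 at 0 h, and FIGLA was below the lower quartile on every array. Smaller sets moved less evenly: 2 of 3 theca and fibroblast markers (DCN and COL1A1) were higher at each later time, 1, 2 and 2 of 4 macrophage and leukocyte markers were higher and 0, 1 and 1 lower, and 1 of 4 endothelial markers was higher and 1 lower. Both measured neuron markers (SYT1 and STMN2) were higher at 48 h and 1 of them at 96 h and at 144 h, with sums of 9.23 to 9.84, 9.09 to 9.40 and 9.11 to 9.30, against 7.69 to 8.17 at 0 h. Of 2 epithelial markers, EPCAM was higher at 48 h, and no other difference from 0 h was called. The part of any of these in the ion channel differences was not tested. In bulk RNA, fewer cells of a type and less RNA per cell cannot be told apart.

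By limma's moderated F test over the 4 times, 53 of the 119 genes (44.5%) were called, where the share of all features was 47.5% and of named genes 51.9%. The share is thus near the background. The range of a gene's 4 time means had a median of 0.50 over the ion channel genes and 0.57 over the named genes. A range of at least 1, which is 2-fold, was found in 23 called genes, and the matching share of all features was not counted. Of the 60 dim genes 10 were called, and the called share among all dim features was not counted. Among the 53, the highest mean lay at 0 h for 17 genes, at 48 h for 13, at 96 h for 15 and at 144 h for 8, and the lowest mean lay at 0 h for 20, at 48 h for 9, at 96 h for 13 and at 144 h for 11. No single time was therefore the peak or the low point of most of them. The same counts were not made over all called features, so they are not shown to be particular to ion channel genes.

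**Figure D1:**
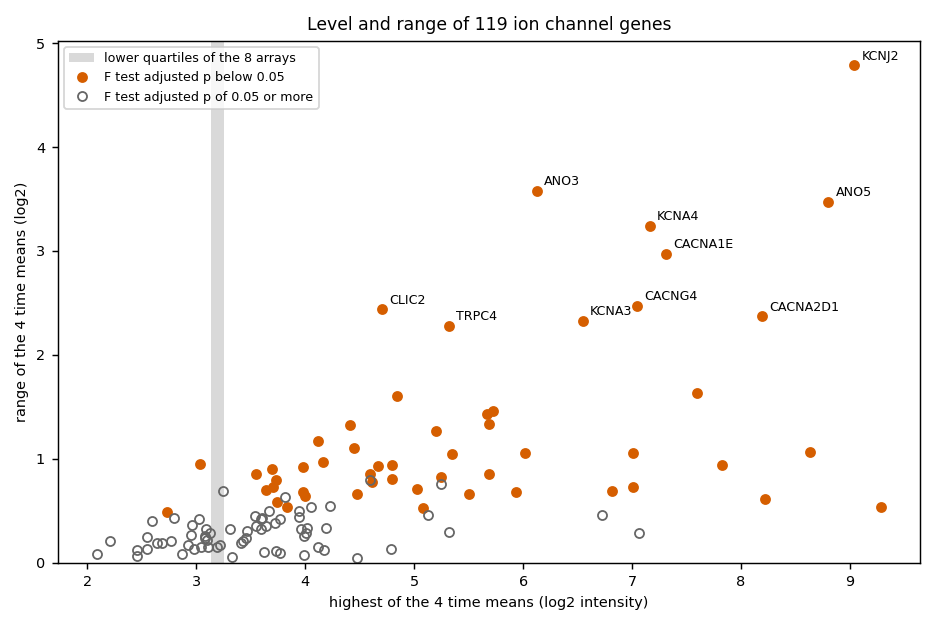
Each of the 119 ion channel genes is a point, with the highest of its 4 time means on the x axis (log2 intensity) and the range of its 4 time means on the y axis (log2). Filled points are the 53 genes called by the F test and open points the other 66, and the grey band spans the lower quartiles of the 8 arrays, 3.13 to 3.25. KCNJ2 has the widest range, 4.79, and most open points sit at low intensity.

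At 48 h against 0 h, 17 of the 119 genes were higher and 19 lower, where 15.2% of all features were higher and 14.8% lower. At 96 h against 0 h, 22 were higher and 24 lower, beside 19% and 22.3% of all features. At 144 h against 0 h, 17 were higher and 18 lower, beside 15.4% and 16.7%. These 3 comparisons share the 0 h arrays. In each, the median difference over the 119 genes lay near 0, at -0.01, 0.01 and -0.03, and so did that of all features, at -0.04, -0.03 and -0.05. A difference of at least 2-fold was called higher in 9 and lower in 5 genes at 48 h, in 6 and 7 at 96 h and in 6 and 8 at 144 h. The shares of all features at 2-fold were not counted, so these counts have no background beside them. The split between higher and lower moved with the scaling: after cyclic loess it was 20 higher and 13 lower at 48 h, and at 96 h it was 26 and 17 after median centring and 27 and 18 after a second quantile normalization. The count of 19 lower at 48 h was 10 and 11 without 0 h replicate 1 and replicate 2, and 10 and 12 without 48 h replicate 1 and replicate 2. The count of 24 lower at 96 h was 13 and 14 without 96 h replicate 1 and replicate 2.

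Among the later times, 96 h against 48 h had 15 of the genes higher and 16 lower, where 13.4% of all features were higher and 16% lower. Of the 119, 9 were higher and 9 lower at 144 h against 96 h, beside 12.1% and 10.1% of all features. At 144 h against 48 h, 5 were higher and 7 lower, beside 4.32% and 4.32%. The 5 higher genes were KCNJ2, CACNA1D, CACNA2D1, CACNG7 and ANO10. The 7 lower genes were ANO3, ANO5, KCNAB3, KCNK3, KCNMA1, KCNIP1 and CACNB2. The count of 15 higher at 96 h against 48 h was 9 without 48 h replicate 1, 5 without 96 h replicate 1 and 7 without 96 h replicate 2. At 144 h against 96 h, the 9 higher became 4 without 96 h replicate 1, and the 9 lower became 4 and 5 without 96 h replicate 1 and replicate 2 and 17 without 144 h replicate 2. At 144 h against 48 h, the 5 higher became 3 without any 1 of the arrays 0 h replicate 1, 0 h replicate 2, 48 h replicate 2, 96 h replicate 1 and 96 h replicate 2, and 1 without 48 h replicate 1.

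Of the 178 calls over the 6 comparisons, 106 held without each of the 8 arrays in turn and 72 were lost without at least 1 of them. A pairwise call given below held without each array, and under each other normalization, filter and variance model run, unless its sentence or the next says otherwise. A call is lost where its adjusted p is no longer under 0.05. A difference that was not called in the full fit could become called under another setting, and only some of these gains are given. Counting each call and setting, 310 losses were found, all 310 with the direction as reported and 304 with a difference within 1.5 times the reported one. Much of this was fixed in advance. The difference itself cannot move where only arrays of other times are left out, or where only the variance prior or the replicate block changes. These counts are therefore no test of how stable the lost calls are. The ion channel genes given with the values of each array are the 23 called genes with a range of at least 1 and the gene with the highest mean in each of 14 channel classes, and besides them CACNA1C and TRPM6. These 2 and the other genes given with a value were chosen after their values were seen, and the rest are named so that every member is accounted for. The classes hold 2 to 23 genes, formed by name, and no class count was tested. Each F test count below stands beside 47.5% of all features.

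**Figure D2:**
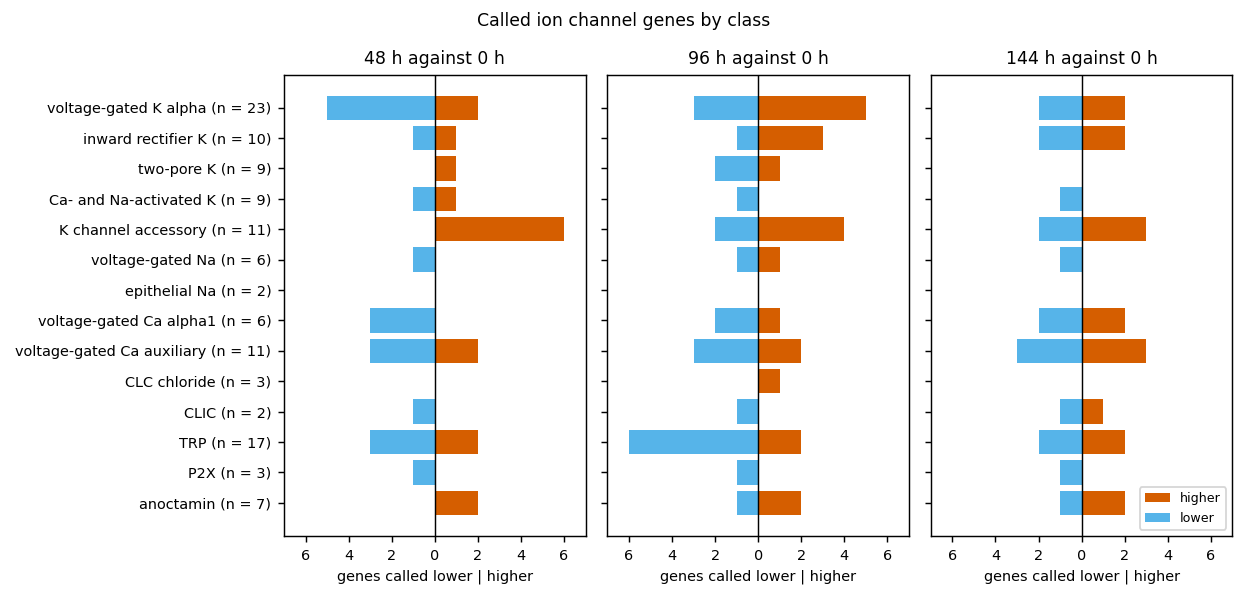
Bars give the number of ion channel genes called higher (right of 0) and lower (left of 0) than at 0 h in each of 14 channel classes, at 48 h, 96 h and 144 h, with the number of genes in a class after its name. At 48 h the accessory subunits of potassium channels had 6 genes higher and 0 lower, and the alpha1 subunits of voltage-gated calcium channels 0 higher and 3 lower. Of all features 15.2% were higher and 14.8% lower at 48 h, and no class count was tested.

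Inward rectifier potassium channels pass potassium more readily into the cell than out of it and set the resting potential. Of 10 genes 4 were called by the F test. KCNJ2, a strong inward rectifier, showed the largest change of all 119 genes and was higher at each later time. KCNJ2 had log2 intensities of 4.33 and 4.18 at 0 h, 7.10 and 7.38 at 48 h, 9.03 and 9.05 at 96 h and 8.04 and 8.31 at 144 h. All arrays of later times lay above both 0 h arrays, and the 96 h arrays lay above all others. The difference from 0 h was 2.99 ± 0.14 (adjusted p = 4.61e-06) at 48 h, 4.79 ± 0.14 (adjusted p = 2.98e-07) at 96 h and 3.92 ± 0.14 (adjusted p = 7.27e-07) at 144 h, which are 7.93-fold, 27.6-fold and 15.2-fold higher intensities. KCNJ2 was 1.80 ± 0.14 higher at 96 h than at 48 h and fell by 0.86 ± 0.14 at 144 h against 96 h (adjusted p = 0.00444). Its excess at 144 h over 48 h, 0.93 ± 0.14, was lost as a call without 48 h replicate 1 or in a fit of only the 4 arrays compared (adjusted p from 0.0521 to 0.0591).

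KCNJ3 encodes a subunit of the potassium channels that G proteins open. KCNJ3 had log2 intensities of 4.45 and 4.36 at 0 h, 3.52 and 3.35 at 48 h, 3.05 and 3.13 at 96 h and 3.25 and 3.50 at 144 h. Both 0 h arrays lay above every later array, and the 96 h arrays lay below the lower quartile, so no fold is given. KCNJ3 fell by 0.97, 1.32 and 1.03 at 48, 96 and 144 h against 0 h (adjusted p = 0.000784, 8.01e-05 and 0.000458). KCNJ15 and KCNJ4 were higher at 96 h than at 0 h, by 0.80 ± 0.11 and 0.68 ± 0.11 on the log2 scale, from levels near the lower quartile. KCNJ4 was also called higher at 144 h (0.38), a call lost without either 0 h array, without either 96 h array, without 144 h replicate 2, with a robust, trended variance prior, in a fit of only the 4 arrays compared or without both 96 h arrays (adjusted p from 0.0524 to 0.157). KCNJ6, KCNJ8, KCNJ9, KCNJ11, KCNJ13 and KCNJ14 did not pass the F test. KCNJ8, the pore subunit of a channel that ATP closes, was called lower at 144 h than at 0 h in its pairwise comparison (-0.53), a call lost without 0 h replicate 2, without either 96 h array, without either 144 h array, after median centring, after a second quantile normalization, after cyclic loess, with a robust, trended variance prior, in a fit of only the 4 arrays compared or without both 96 h arrays (adjusted p from 0.0527 to 0.266).

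**Figure D3:**
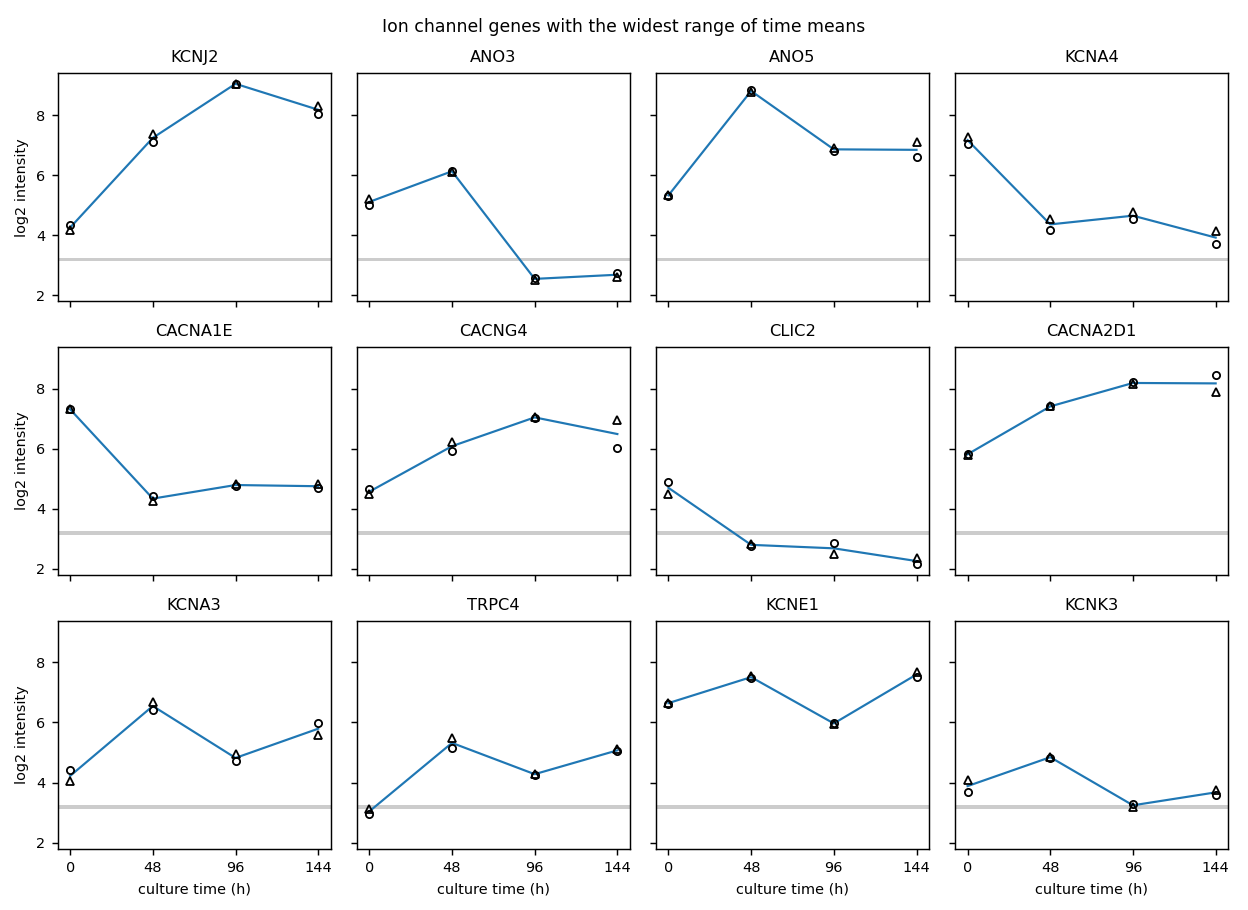
Log2 intensity (y axis) of the 12 ion channel genes with the widest range of time means against culture time in hours (x axis); circles are replicate 1, triangles replicate 2, lines join the time means, and the grey line marks the arrays' lower quartiles. KCNJ2, CACNG4 and CACNA2D1 lie lowest at 0 h and KCNA4, CACNA1E and CLIC2 highest at 0 h, while ANO3, ANO5, KCNA3 and KCNK3 have their highest mean at 48 h.

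The alpha subunits of voltage-gated potassium channels form the pore that opens on depolarisation. They were the largest class, with 23 genes, of which 6 (26.1%) were called by the F test, where 47.5% of all features were, and 14 of the 23 were dim by the measure above. At 48 h 2 were higher and 5 lower than at 0 h, beside 15.2% and 14.8% of all features, at 96 h 5 and 3, beside 19% and 22.3%, and at 144 h 2 and 2, beside 15.4% and 16.7%. The 2 genes with a range of at least 1 moved in opposite directions. KCNA4, which carries a rapidly inactivating current, had log2 intensities of 7.04 and 7.28 at 0 h, 4.17 and 4.55 at 48 h, 4.54 and 4.76 at 96 h and 3.69 and 4.15 at 144 h. The 0 h arrays lay far above all 6 later arrays. KCNA4 differed from 0 h at 48 h by -2.80 ± 0.20, at 96 h by -2.51 ± 0.20 and at 144 h by -3.24 ± 0.20 (adjusted p = 2.72e-05, 2.45e-05 and 8.53e-06), or 9.47-fold lower in intensity at 144 h. Its drop at 144 h against 96 h (-0.73) was called, a call lost without either 96 h array, without 144 h replicate 1 or in a fit of only the 4 arrays compared (adjusted p from 0.0618 to 0.193).

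KCNA3, best known from T lymphocytes, had log2 intensities of 4.40 and 4.04 at 0 h, 6.41 and 6.68 at 48 h, 4.70 and 4.94 at 96 h and 5.997 and 5.59 at 144 h. The 48 h arrays lay above all others and the 0 h arrays below all others. KCNA3 was higher by 2.33 ± 0.19 (adjusted p = 6.2e-05) at 48 h and by 1.57 ± 0.19 (adjusted p = 0.000401) at 144 h than at 0 h. At 96 h the excess over 0 h was 0.60 ± 0.19, called in the full fit, a call lost without 0 h replicate 2 or without either 96 h array (adjusted p from 0.0699 to 0.215). KCNA3 was lower at 96 h than at 48 h (-1.73 ± 0.19, adjusted p = 0.000432) and higher at 144 h than at 96 h (0.97 ± 0.19), the last call being lost without 96 h replicate 1 (adjusted p = 0.083). The summed log2 level of the 4 measured macrophage and leukocyte markers was 19.57 to 20.27 at 48 h, 19.68 to 20.00 at 96 h and 18.78 to 19.31 at 144 h, against 18.61 to 18.62 at 0 h, and their part in the KCNA3 course was not tested.

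KCNQ5, of the family that carries the M current in neurons, was higher at all later times than at 0 h, by 0.76 ± 0.14, 0.68 ± 0.14 and 0.93 ± 0.14. A second KCNQ5 feature differed from 0 h by 0.30, 0.48 and 0.09 and was called only at 96 h. KCNA7 was higher at 96 h than at 0 h by 0.81 ± 0.13 and differed from 0 h by 0.16 at 48 h and 0.07 at 144 h, neither called. KCNH2, known from the repolarising current of the heart, was lower at 96 h (-0.53), a call lost without 96 h replicate 1 (adjusted p = 0.081), and at 144 h (-0.51), a call lost without either 0 h array (adjusted p from 0.056 to 0.0626). KCNG2, a subunit that forms no channel alone, was lower at 48 h (-0.66), a call lost without 0 h replicate 1 or without either 48 h array (adjusted p from 0.0512 to 0.116). It was also lower at 96 h (-0.53), a call lost without 0 h replicate 1, without either 96 h array, after median centring, after a second quantile normalization or after cyclic loess (adjusted p from 0.06 to 0.194). The other 17 genes did not pass the F test, with ranges of 0.08 to 0.46: KCNA5, KCNA6, KCNB2, KCNC1, KCNC2, KCND2, KCND3, KCNG1, KCNG3, KCNG4, KCNH6, KCNH7, KCNH8, KCNQ3, KCNS2, KCNS3 and KCNV2. Of these KCNB2, KCNG3 and KCNH7 were called lower at 48 h, and KCND3 and KCNG1 higher at 96 h, than at 0 h. Each of these 5 calls was lost without at least 1 array and under other settings too. The KCNB2, KCNG3 and KCNH7 calls were lost after median centring, in a fit of only the arrays compared and without both 96 h arrays. Those of KCNB2 and KCNG3 were also lost after a second quantile normalization and after cyclic loess, and that of KCNG3 with a replicate block. The KCND3 and KCNG1 calls were lost with a robust, trended variance prior. In these other settings the adjusted p was from 0.0506 to 0.0948.

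The 2-pore-domain potassium channels carry the leak current that pulls the resting potential toward the potassium equilibrium. Of 9 genes 3 were called by the F test. Not 1 was called at 144 h against 0 h, where 15.4% of all features were higher and 16.7% lower. KCNK3, a leak channel that acid closes, had log2 intensities of 3.69 and 4.07 at 0 h, 4.83 and 4.86 at 48 h, 3.30 and 3.19 at 96 h and 3.59 and 3.76 at 144 h. The 48 h arrays lay above all others, and the 96 h arrays, next to the lower quartile, below all others. KCNK3 was higher at 48 h than at 0 h by 0.96 ± 0.15 (adjusted p = 0.00174). It differed at 96 h from 48 h by -1.60 ± 0.15 on the log2 scale (adjusted p = 0.000182) and at 144 h from 48 h by -1.17 (adjusted p = 0.00257). The lower level at 96 h against 0 h, -0.64 ± 0.15, was called in the full fit, a call lost without 0 h replicate 2 or without 96 h replicate 2 (adjusted p from 0.0581 to 0.069). KCNK1 had the highest mean of the class. KCNK1 had log2 intensities of 4.18 and 4.36 at 0 h, 4.50 and 4.73 at 48 h, 3.90 and 3.78 at 96 h and 3.88 and 4.31 at 144 h. In the full fit no difference of KCNK1 from 0 h was called. After cyclic loess KCNK1 was called higher at 48 h (0.50). At 96 h its difference (-0.43) was called without either 144 h array or in a fit of only the 4 arrays compared. Its drop at 96 h against 48 h (-0.77) was called, a call lost without 48 h replicate 2 or without 96 h replicate 2 (adjusted p from 0.0669 to 0.0783). KCNK6, another leak channel, was higher at 96 h than at 0 h by 0.66, a call lost without 0 h replicate 1 or without 96 h replicate 1 (adjusted p from 0.0648 to 0.0702). KCNK5, KCNK7, KCNK9, KCNK10, KCNK13 and KCNK15 did not pass the F test, with ranges of 0.15 to 0.50, and KCNK10 was called lower at 96 h than at 0 h (-0.45), a call lost without 0 h replicate 1, without either 96 h array, after median centring, after a second quantile normalization or after cyclic loess (adjusted p from 0.0766 to 0.199).

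Calcium-activated and sodium-activated potassium channels couple internal ion levels to the membrane potential. Of 9 genes 2 were called by the F test, and 7 of the 9 were dim. KCNMA1, the pore of the large-conductance channel, had log2 intensities of 2.97 and 2.95 at 0 h, 4.10 and 4.13 at 48 h, 2.93 and 2.96 at 96 h and 2.996 and 3.21 at 144 h. The 48 h arrays lay above all others, and both arrays of 0 h and of 96 h lay below the lower quartile, so no fold is given. KCNMA1 was higher at 48 h than at 0 h by 1.15 ± 0.11 (adjusted p = 0.000165), and the differences from 0 h were -0.02 ± 0.11 at 96 h and 0.14 ± 0.11 at 144 h, neither called. KCNMB1, the partner of KCNMA1 in smooth muscle, had the highest mean of the class. KCNMB1 had log2 intensities of 4.43 and 4.50 at 0 h, 4.39 and 4.49 at 48 h, 4.51 and 4.35 at 96 h and 4.38 and 4.57 at 144 h, with overlapping arrays at all 4 times and an F test adjusted p of 0.984. KCNT2, a sodium-activated channel, was lower at each later time than at 0 h, with differences of -0.72 ± 0.11, -0.84 ± 0.11 and -0.90 ± 0.11, down to levels below the lower quartile. KCNMB2, KCNMB4, KCNN1, KCNN3, KCNN4 and KCNT1 did not pass the F test.

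Accessory proteins bind potassium channels and alter their gating, number or assembly. Of 11 genes 10 (90.9%) were called by the F test, where 47.5% of all features were, and 8 of the 11 were above the dim range. At 48 h 6 of them were higher than at 0 h (KCNAB2, KCNAB3, KCNE1, KCNIP1, KCNIP3 and KCNRG) and 0 lower. At 96 h 4 were higher and 2 lower, and at 144 h 3 and 2. Of all features, 15.2% were higher and 14.8% lower at 48 h, 19% and 22.3% at 96 h, and 15.4% and 16.7% at 144 h. KCNE1, a small subunit that slows the gating of a delayed potassium current, had log2 intensities of 6.63 and 6.66 at 0 h, 7.49 and 7.53 at 48 h, 5.98 and 5.96 at 96 h and 7.53 and 7.67 at 144 h. The 48 h and 144 h arrays lay above both 0 h arrays and the 96 h arrays below them, and the gap between the arrays of a time was small beside these differences. KCNE1 was higher at 48 h by 0.86 ± 0.11 (adjusted p = 0.000544), changed at 96 h by -0.68 ± 0.11 (adjusted p = 0.0012) and was higher at 144 h by 0.95 ± 0.11 (adjusted p = 0.000256) than at 0 h. The difference was -1.54 ± 0.11 at 96 h against 48 h and 1.63 ± 0.11 at 144 h against 96 h, both called.

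KCNAB2, a beta subunit of voltage-gated potassium channels, had the highest mean of the accessory class. KCNAB2 had log2 intensities of 7.06 and 6.71 at 0 h, 7.77 and 7.87 at 48 h, 7.80 and 7.73 at 96 h and 7.81 and 7.67 at 144 h. Every later array lay above both 0 h arrays, and the 3 later times overlapped each other. KCNAB2 was higher than at 0 h by 0.94 ± 0.14, 0.88 ± 0.14 and 0.86 ± 0.14 (adjusted p = 0.00151, 0.00126 and 0.00206). KCNAB3, its relative, had log2 intensities of 4.84 and 4.81 at 0 h, 5.58 and 5.79 at 48 h, 4.44 and 4.30 at 96 h and 4.13 and 4.57 at 144 h, on both of its features, which hold identical values. KCNAB3 was higher at 48 h than at 0 h by 0.86 ± 0.16 (adjusted p = 0.00477) and differed at 144 h from 48 h by -1.34 (adjusted p = 0.00216). Its later levels differed from 0 h by -0.46 and -0.48, which missed the threshold (adjusted p = 0.0528 and 0.0552). KCNE4, which inhibits several potassium channels, had log2 intensities of 3.25 and 3.43 at 0 h, 3.35 and 3.78 at 48 h, 4.25 and 4.64 at 96 h and 4.17 and 3.67 at 144 h. The 96 h arrays lay above all others, and KCNE4 was higher at 96 h than at 0 h by 1.10 ± 0.22 (adjusted p = 0.00419). Its excess at 96 h over 48 h (0.88) was called, a call lost without 48 h replicate 1 or without 96 h replicate 2 (adjusted p from 0.122 to 0.137).

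The remaining accessory genes changed over narrower ranges. KCNE2 was higher at 96 h than at 0 h by 0.81 ± 0.14, and at 144 h against 96 h it differed by -0.93 ± 0.14. KCNIP3, which binds channels of the fast transient current and also acts as a repressor of transcription, was higher at 48, 96 and 144 h than at 0 h, by 0.69, 0.92 and 0.72, from a 0 h level below the lower quartile. KCNRG, which hinders channel assembly, was higher at 48 h by 0.73, also from a level below the lower quartile. KCNIP1 was called higher at 48 h (0.69), a call lost without 0 h replicate 1 (adjusted p = 0.0518), and no array lay clearly above the lower quartile. KCNE5 was called lower at 144 h (-0.82), a call lost without 0 h replicate 1 (adjusted p = 0.0863). KCNIP2 was called lower at 96 h (-0.44), a call lost without either 0 h array, without either 96 h array, after median centring or after a second quantile normalization (adjusted p from 0.0504 to 0.194). At 144 h its difference was -0.54, lost as a call without either 0 h array, without 144 h replicate 1 or in a fit of only the 4 arrays compared (adjusted p from 0.0554 to 0.0827). KCNE3 did not pass the F test (adjusted p = 0.981).

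Voltage-gated sodium channels carry the upstroke of action potentials in nerve and muscle, and their beta subunits also act in cell adhesion. Of 6 genes 2 were called by the F test, and 5 of the 6 were dim. SCN2B, a beta subunit, had log2 intensities of 5.88 and 5.57 at 0 h, 4.30 and 4.22 at 48 h, 4.35 and 4.27 at 96 h and 4.52 and 4.70 at 144 h. Neither 0 h array overlapped the later arrays, all of which lay lower. SCN2B differed from 0 h at 48 h by -1.46, at 96 h by -1.41 and at 144 h by -1.11 on the log2 scale (adjusted p = 0.000122, 7.91e-05 and 0.000425). Pore-forming sodium channel genes gave little signal: SCN1A, SCN7A and SCN8A lay below the lower quartile on every array and did not pass the F test, nor did SCN4B. SCN4A, the skeletal muscle pore, was called higher at 96 h than at 0 h (0.52), a call lost without 0 h replicate 1 or without 96 h replicate 2 (adjusted p from 0.0678 to 0.11). Both epithelial sodium channel genes, SCNN1A and SCNN1G, did not pass it either. SCNN1A, the pore subunit with the highest mean of the class, had log2 intensities of 3.97 and 3.88 at 0 h, 3.999 and 3.83 at 48 h, 4.08 and 3.78 at 96 h and 3.93 and 4.05 at 144 h, with overlapping arrays at all times.

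The alpha1 subunits of voltage-gated calcium channels form the pore through which depolarisation admits calcium. Of 6 genes 3 were called by the F test, and these 3 had a range of at least 1. At 48 h 0 were higher and 3 lower than at 0 h, beside 15.2% and 14.8% of all features, at 96 h 1 and 2, beside 19% and 22.3%, and at 144 h 2 and 2, beside 15.4% and 16.7%. CACNA1E, the pore of the R-type current, had log2 intensities of 7.31 and 7.31 at 0 h, 4.41 and 4.27 at 48 h, 4.77 and 4.81 at 96 h and 4.70 and 4.81 at 144 h. Both 0 h arrays lay above all later arrays, and replicate arrays lay close to each other. CACNA1E differed from 0 h by -2.97 ± 0.11 (adjusted p = 1.45e-06) at 48 h, -2.52 ± 0.11 (adjusted p = 1.28e-06) at 96 h and -2.56 ± 0.11 (adjusted p = 1.52e-06) at 144 h, or 7.84-fold, 5.73-fold and 5.9-fold lower intensities. A small excess at 96 h over 48 h (0.45) was called, a call lost without 48 h replicate 2 or without either 96 h array (adjusted p from 0.0925 to 0.118). CACNA1G, the pore of a T-type current that opens at low voltage, had log2 intensities of 5.57 and 5.77 at 0 h, 4.64 and 4.92 at 48 h, 4.27 and 4.21 at 96 h and 4.50 and 4.30 at 144 h. CACNA1G was lower at each later time with no overlap, the differences being -0.89 ± 0.14, -1.43 ± 0.14 and -1.27 ± 0.14 (adjusted p = 0.00209, 8.6e-05 and 0.000237). The further drop at 96 h against 48 h (-0.54) was lost as a call without 48 h replicate 2 or without either 96 h array (adjusted p from 0.0995 to 0.128).

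CACNA1D, an L-type pore, had log2 intensities of 4.59 and 4.63 at 0 h, 4.22 and 4.38 at 48 h, 4.44 and 4.61 at 96 h and 5.47 and 5.22 at 144 h. The 144 h arrays lay above all others. CACNA1D was higher at 144 h than at 0 h by 0.74 ± 0.13 (adjusted p = 0.00299), than at 96 h by 0.82 ± 0.13 (adjusted p = 0.00358) and than at 48 h by 1.04 ± 0.13 (adjusted p = 0.00245). CACNA1C, the L-type pore of heart and smooth muscle, did not pass the F test (adjusted p = 0.0758), with log2 intensities of 4.01 and 3.58 at 0 h, 4.24 and 3.91 at 48 h, 4.17 and 4.69 at 96 h and 4.81 and 4.37 at 144 h. It was called higher at 144 h than at 0 h (0.80), a call lost without 0 h replicate 2, without 144 h replicate 1 or in a fit of only the 4 arrays compared (adjusted p from 0.0518 to 0.204). CACNA1I was called lower at 48 h (-0.42), a call lost without either 0 h array, without either 48 h array, without either 96 h array, after median centring, after a second quantile normalization, after cyclic loess or without both 96 h arrays (adjusted p from 0.0535 to 0.166). CACNA1A was called higher at 96 h (0.43), a call lost without 0 h replicate 2, without either 96 h array or with the mean over its features (adjusted p from 0.0852 to 0.387) with a difference of 0.13 for that mean. Its second feature differed from 0 h by -0.17 at 96 h, the opposite sign.

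The auxiliary subunits of calcium channels (alpha2delta, beta and gamma) govern how many channels reach the membrane and how they open. Of 11 genes 7 were called by the F test, and at 144 h 3 were higher and 3 lower than at 0 h, beside 15.4% and 16.7% of all features. CACNA2D1, an alpha2delta subunit and a receptor for thrombospondins, had log2 intensities of 5.83 and 5.81 at 0 h, 7.41 and 7.41 at 48 h, 8.23 and 8.15 at 96 h and 8.47 and 7.88 at 144 h. Every later array lay above both 0 h arrays. CACNA2D1 was higher by 1.59 ± 0.18, 2.37 ± 0.18 and 2.36 ± 0.18 than at 0 h (adjusted p = 0.000318, 2e-05 and 2.78e-05), or 3.02-fold, 5.18-fold and 5.13-fold. Its excess over 48 h at 96 h (0.78) was lost as a call without either 48 h array or without either 96 h array (adjusted p from 0.0594 to 0.0883). The excess over 48 h at 144 h (0.77) was lost as a call without either 0 h array, without either 48 h array, without either 96 h array, in a fit of only the 4 arrays compared or without both 96 h arrays (adjusted p from 0.0697 to 0.166). CACNG4, a gamma subunit that also travels with AMPA receptors in the brain, had log2 intensities of 4.65 and 4.50 at 0 h, 5.94 and 6.23 at 48 h, 7.04 and 7.05 at 96 h and 6.03 and 6.95 at 144 h. All later arrays lay above the 0 h arrays, and the 144 h arrays differed from each other by 0.924, the widest gap of any member. CACNG4 was higher by 1.51 ± 0.27, 2.47 ± 0.27 and 1.92 ± 0.27 (adjusted p = 0.00337, 0.000135 and 0.000796), and its excess at 96 h over 48 h (0.96) was lost as a call without either 48 h array or without either 96 h array (adjusted p from 0.0617 to 0.151).

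CACNB2, a beta subunit, had log2 intensities of 4.88 and 5.09 at 0 h, 4.48 and 4.57 at 48 h, 5.17 and 5.23 at 96 h and 3.89 and 3.98 at 144 h. The 144 h arrays lay below all others and the 96 h arrays above all others. CACNB2 differed from 0 h by -1.05 ± 0.12 (adjusted p = 0.000251) at 144 h, and at 96 h by 0.22 ± 0.12, which was not called in the full fit. At 96 h CACNB2 was called higher than at 0 h after a second quantile normalization (0.33) and after cyclic loess (0.34). At 96 h it was higher than at 48 h by 0.68 ± 0.12, and at 144 h it differed from 96 h by -1.27 ± 0.12, both called. Its difference of -0.46 at 48 h was lost as a call without 0 h replicate 2, without either 48 h array or after cyclic loess (adjusted p from 0.0551 to 0.124). The difference of -0.59 at 144 h against 48 h was lost as a call without either 48 h array, without either 96 h array, in a fit of only the 4 arrays compared or without both 96 h arrays (adjusted p from 0.0545 to 0.11). CACNG6, a gamma subunit, had log2 intensities of 6.05 and 5.98 at 0 h, 4.73 and 5.19 at 48 h, 5.22 and 5.21 at 96 h and 4.87 and 5.61 at 144 h. Each later array lay below the 0 h arrays. CACNG6 was called lower at 48 h (-1.06), a call lost without either 0 h array or without 48 h replicate 1 (adjusted p from 0.0554 to 0.0883) with differences of -1.09 to -0.83. It was called lower at 96 h (-0.80), a call lost without either 0 h array or without either 96 h array (adjusted p from 0.0927 to 0.118) with differences of -0.84 to -0.77. The call at 144 h (-0.78) was lost without either 0 h array, without either 96 h array, without 144 h replicate 1, after cyclic loess, in a fit of only the 4 arrays compared or without both 96 h arrays (adjusted p from 0.057 to 0.157), and the difference was -0.41 without 144 h replicate 1 and -0.81 to -0.69 in the other fits.

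CACNA2D4, an alpha2delta subunit, was lower at each later time than at 0 h, with differences of -0.75, -0.85 and -0.73. CACNB1, a beta subunit, was called lower at 96 h (-0.68), a call lost without 0 h replicate 2 or without either 96 h array (adjusted p from 0.0544 to 0.0676) with a difference of -0.45 without 0 h replicate 2. CACNG7 was called higher at 144 h than at 0 h (0.86), with its other 6 arrays below the lower quartile, a call lost without 0 h replicate 2 (adjusted p = 0.0541). CACNA2D2, CACNG1, CACNG2 and CACNG5 did not pass the F test, with ranges of 0.18 to 0.75.

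**Figure D4:**
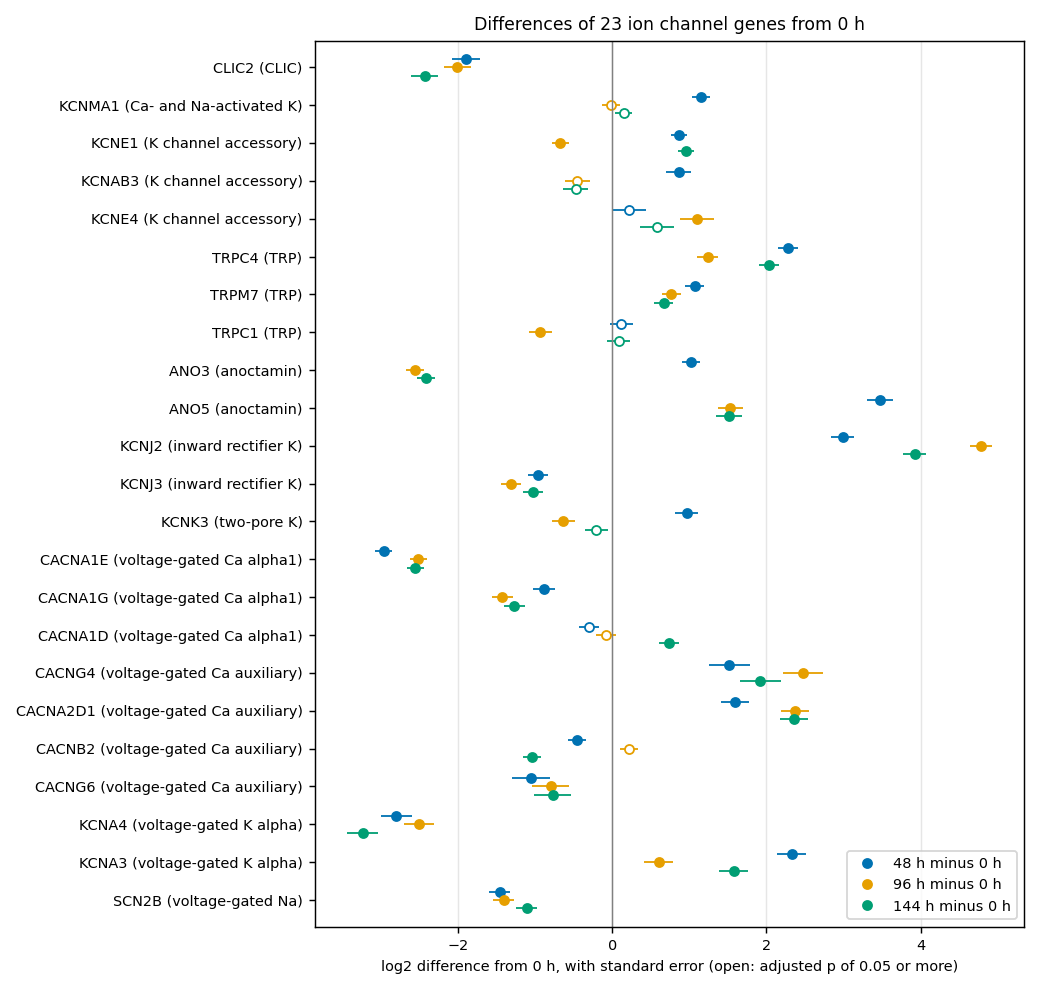
Log2 difference from 0 h (x axis) of the 23 called ion channel genes with a range of at least 1, at 48 h (blue), 96 h (orange) and 144 h (green), with bars of 1 SE from limma's fit; filled points have an adjusted p under 0.05. KCNJ2 reaches 4.79 at 96 h, CACNA1E lies between -2.97 and -2.52 at all 3 times, and ANO3 is higher at 48 h and lower at 96 h and 144 h.

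Among chloride proteins, CLC genes encode channels and exchangers, and CLIC genes encode proteins found both in the cytosol and at membranes. Of 3 CLC genes, CLCN7, an exchanger of lysosomes, was the 1 called by the F test. CLCN7 was higher at 96 h than at 0 h by 0.69 ± 0.14 and differed by -0.60 at 144 h from 96 h, the second call being lost without either 96 h array, without 144 h replicate 1 or in a fit of only the 4 arrays compared (adjusted p from 0.0507 to 0.141). CLCN6, a late endosomal exchanger with the highest mean of the class, had log2 intensities of 6.65 and 6.92 at 0 h, 6.92 and 6.91 at 48 h, 6.70 and 6.90 at 96 h and 6.91 and 7.22 at 144 h, and did not pass the F test (adjusted p = 0.386). CLCN3 did not pass the F test (adjusted p = 0.0683). CLIC2 had log2 intensities of 4.89 and 4.51 at 0 h, 2.78 and 2.83 at 48 h, 2.88 and 2.50 at 96 h and 2.15 and 2.38 at 144 h. Both 0 h arrays lay above all later arrays, and all later arrays lay below the lower quartile, so no fold is given. CLIC2 differed from 0 h by -1.90 ± 0.18 (adjusted p = 0.000122) at 48 h, -2.01 ± 0.18 (adjusted p = 4.7e-05) at 96 h and -2.44 ± 0.18 (adjusted p = 2.3e-05) at 144 h. CLIC5, which binds the actin cytoskeleton, had log2 intensities of 3.99 and 3.50 at 0 h, 4.27 and 4.24 at 48 h, 4.32 and 4.24 at 96 h and 4.33 and 4.86 at 144 h. Its differences from 0 h at 48 h (0.51) and 96 h (0.53) were not called in the full fit. After cyclic loess both were called, and that at 96 h was also called after median centring and after a second quantile normalization. CLIC5 was called higher at 144 h than at 0 h (0.85 ± 0.21), a call lost without 0 h replicate 2, without 144 h replicate 2 or in a fit of only the 4 arrays compared (adjusted p from 0.0546 to 0.103).

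Anoctamins include calcium-activated chloride channels and proteins that scramble membrane lipids. Of 7 genes 4 were called by the F test, among them ANO3 and ANO5, with the second and the third widest range of the 119 genes. ANO5, known for its role in skeletal muscle, had log2 intensities of 5.31 and 5.34 at 0 h, 8.85 and 8.75 at 48 h, 6.80 and 6.92 at 96 h and 6.59 and 7.09 at 144 h. The 48 h arrays lay above all others and the 0 h arrays below all others. ANO5 was higher at 48 h by 3.47 ± 0.16 (adjusted p = 4.19e-06), at 96 h by 1.53 ± 0.16 (adjusted p = 0.000135) and at 144 h by 1.51 ± 0.16 (adjusted p = 0.000208) than at 0 h, or 11.1-fold, 2.89-fold and 2.86-fold. Against 48 h it differed by -1.94 ± 0.16 at 96 h and -1.96 ± 0.16 at 144 h (adjusted p = 0.000126 and 0.000452). ANO3, an anoctamin of the brain, had log2 intensities of 5.01 and 5.20 at 0 h, 6.15 and 6.11 at 48 h, 2.58 and 2.51 at 96 h and 2.75 and 2.62 at 144 h. The 48 h arrays lay highest, and all arrays of 96 h and 144 h lay below the lower quartile, so no fold is given for them. ANO3 was higher at 48 h than at 0 h by 1.02 ± 0.12 (adjusted p = 0.000373) and differed from 0 h by -2.56 ± 0.12 (adjusted p = 1.6e-06) at 96 h and -2.42 ± 0.12 (adjusted p = 2.75e-06) at 144 h. At 96 h against 48 h its difference was -3.58 ± 0.12 (adjusted p = 3.68e-06), and at 144 h against 48 h -3.44 ± 0.12 (adjusted p = 1.25e-05).

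ANO6, a lipid scramblase with the highest mean of the anoctamins, had log2 intensities of 7.72 and 7.56 at 0 h, 7.70 and 7.52 at 48 h, 8.26 and 8.17 at 96 h and 7.65 and 7.71 at 144 h. The 96 h arrays lay above all others, and ANO6 was higher at 96 h than at 0 h by 0.58 ± 0.12 (adjusted p = 0.00502). Its excess at 96 h over 48 h (0.61) was lost as a call without 96 h replicate 1 (adjusted p = 0.0636). The drop at 144 h against 96 h (-0.54) was lost as a call without either 96 h array (adjusted p from 0.0792 to 0.12). ANO10 was higher at 144 h than at 0 h by 0.73 ± 0.11. ANO10 was also higher than at 96 h (0.63), a call lost without 96 h replicate 1 (adjusted p = 0.0648), and than at 48 h (0.60), a call lost without 48 h replicate 1 or in a fit of only the 4 arrays compared (adjusted p from 0.0934 to 0.104). ANO1, the classic calcium-activated chloride channel, did not pass the F test (adjusted p = 0.215), nor did ANO2 and ANO4, which lay below the lower quartile on all arrays.

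TRP channels admit calcium and other cations in answer to receptors, temperature, stretch or chemicals. Of 17 genes 8 were called by the F test, and 12 of the 17 were dim. At 48 h 2 were higher and 3 lower than at 0 h, beside 15.2% and 14.8% of all features, at 96 h 2 and 6, beside 19% and 22.3%, and at 144 h 2 and 2, beside 15.4% and 16.7%. TRPC4, which opens downstream of phospholipase C, had log2 intensities of 2.95 and 3.13 at 0 h, 5.16 and 5.48 at 48 h, 4.26 and 4.30 at 96 h and 5.04 and 5.10 at 144 h. All later arrays lay above both 0 h arrays, which lay below the lower quartile. TRPC4 was higher than at 0 h by 2.28 ± 0.14 (adjusted p = 1.16e-05) at 48 h, 1.24 ± 0.14 (adjusted p = 0.000149) at 96 h and 2.03 ± 0.14 (adjusted p = 1.38e-05) at 144 h. It differed by -1.04 ± 0.14 at 96 h from 48 h and by 0.79 ± 0.14 at 144 h from 96 h, both called. TRPC1, which forms channels together with TRPC4, had log2 intensities of 6.84 and 6.93 at 0 h, 7.14 and 6.87 at 48 h, 6.07 and 5.83 at 96 h and 7.08 and 6.85 at 144 h. The 96 h arrays lay below all others, and the arrays of the other times overlapped. TRPC1 differed at 96 h by -0.94 ± 0.15 (adjusted p = 0.00122) from 0 h and by -1.06 from 48 h, and at 144 h it was 1.02 higher than at 96 h, all called. TRPC4AP, with the highest mean of the class, had log2 intensities of 9.28 and 9.01 at 0 h, 9.15 and 9.20 at 48 h, 8.72 and 8.78 at 96 h and 9.33 and 9.25 at 144 h. It was called lower at 96 h than at 0 h (-0.39), a call lost without 0 h replicate 1, without either 48 h array, without either 96 h array or after median centring (adjusted p from 0.0513 to 0.2) with a difference of -0.26 without 0 h replicate 1.

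TRPM7, a cation channel joined to a protein kinase and a route of magnesium entry, had log2 intensities of 7.46 and 7.66 at 0 h, 8.70 and 8.55 at 48 h, 8.34 and 8.31 at 96 h and 8.29 and 8.17 at 144 h. Every later array lay above both 0 h arrays. TRPM7 was higher than at 0 h by 1.07 ± 0.12, 0.76 ± 0.12 and 0.67 ± 0.12 (adjusted p = 0.000343, 0.00123 and 0.0035). TRPM6, its closest relative, moved in the opposite direction. TRPM6 differed from 0 h by -0.90 ± 0.13 at 96 h and -0.97 ± 0.13 at 144 h, and its difference at 48 h (-0.58) was lost as a call without 0 h replicate 1 or without either 48 h array (adjusted p from 0.0502 to 0.0698). TRPM6 had log2 intensities of 4.21 and 4.11 at 0 h, 3.58 and 3.59 at 48 h, 3.42 and 3.11 at 96 h and 3.21 and 3.18 at 144 h, and 1 array at 96 h and 1 at 144 h lay below the lower quartile. TRPA1, a sensor of irritants, was lower at 144 h than at 0 h (-0.70). Its difference at 48 h (-0.56) was lost as a call without either 0 h array, without either 48 h array or after cyclic loess (adjusted p from 0.0501 to 0.107), and that at 96 h (-0.56) without 0 h replicate 2 or without 96 h replicate 1 (adjusted p from 0.0723 to 0.117). TRPV4, an osmotic and stretch sensor, was called lower at 96 h than at 0 h (-0.34), a call lost without either 0 h array, without either 48 h array, without either 96 h array, after median centring, after a second quantile normalization, after cyclic loess or with a robust, trended variance prior (adjusted p from 0.0508 to 0.187). TRPC5 passed the F test with every array below the lower quartile. TRPC7, TRPM1, TRPM3, TRPM8, TRPV1, TRPV2, TRPV3, TRPV5 and TRPV6 did not pass the F test, and all 9 were dim. Of these TRPV6 was called lower at 48 h (-0.50), a call lost without either 0 h array, without either 48 h array, without either 96 h array, after cyclic loess or without both 96 h arrays (adjusted p from 0.0613 to 0.177). TRPM3 was called lower at 96 h (-0.69), a call lost without either 0 h array, without either 96 h array, after median centring or after a second quantile normalization (adjusted p from 0.0534 to 0.198).

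P2X receptors are cation channels that extracellular ATP opens. Of 3 genes 1 was called by the F test. P2RX6, with the highest mean of them, had log2 intensities of 4.93 and 5.11 at 0 h, 4.33 and 4.30 at 48 h, 4.68 and 4.52 at 96 h and 4.42 and 4.71 at 144 h. All 6 later arrays lay below the 0 h arrays. P2RX6 was lower at 48 h than at 0 h, with a difference of -0.71 ± 0.14 (adjusted p = 0.00527). The difference at 96 h (-0.42) was lost as a call without either 0 h array, without either 48 h array, without either 96 h array, after median centring, after a second quantile normalization, after cyclic loess or with a robust, trended variance prior (adjusted p from 0.0581 to 0.219). At 144 h it was -0.46, lost as a call without either 0 h array, without either 48 h array, without either 96 h array, without 144 h replicate 1, after cyclic loess, with a robust, trended variance prior, in a fit of only the 4 arrays compared or without both 96 h arrays (adjusted p from 0.0524 to 0.181). P2RX2 and P2RX7 did not pass the F test (adjusted p = 0.411 and 0.492).

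Genes that work beside these channels but carry other names were taken from 3 lists, and 45 of their genes had a named feature. Of 19 measured genes of other plasma membrane channels, those called against 0 h were 5 higher and 2 lower at 48 h, 5 and 4 at 96 h, and 6 and 1 at 144 h. Of 12 genes of calcium release from stores and of store-operated entry, 3 were higher and 4 lower at 48 h, 2 and 5 at 96 h, and 2 and 4 at 144 h. Of 14 pumps and exchangers that set the ion gradients, 5 were higher and 2 lower at 48 h, 5 and 1 at 96 h, and 4 and 2 at 144 h. The shares of all features called higher and lower were 15.2% and 14.8% at 48 h, 19% and 22.3% at 96 h, and 15.4% and 16.7% at 144 h, and no list count was tested against them. Genes named here are those called at 144 h with a difference of at least 1, up to 4 a list. MCOLN3, a cation channel of endosomes and lysosomes, had log2 intensities of 7.99 and 8.04 at 0 h, 5.16 and 4.61 at 48 h, 3.83 and 3.69 at 96 h and 4.18 and 4.11 at 144 h, and its differences from 0 h were -3.13 ± 0.18, -4.25 ± 0.18 and -3.87 ± 0.18. ITPR2, a receptor that releases calcium from the endoplasmic reticulum, had log2 intensities of 8.86 and 8.90 at 0 h, 7.92 and 7.88 at 48 h, 6.81 and 7.15 at 96 h and 7.01 and 6.60 at 144 h, and differed by -0.98 ± 0.17, -1.90 ± 0.17 and -2.08 ± 0.17 from 0 h. Both genes were thus lower at every later time with no overlap. ORAI2, a pore of store-operated entry, had log2 intensities of 5.77 and 5.43 at 0 h, 6.49 and 6.60 at 48 h, 4.86 and 4.92 at 96 h and 6.66 and 6.65 at 144 h. ORAI2 was higher at 48 h and 144 h and lower at 96 h than at 0 h, with differences of 0.95, 1.06 and -0.71. TPCN1, an endolysosomal channel, had log2 intensities of 5.98 and 6.28 at 0 h, 6.87 and 6.87 at 48 h, 6.48 and 6.34 at 96 h and 7.23 and 7.49 at 144 h and was higher at 48 h (0.74) and 144 h (1.23).

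Among the pumps, ATP2B4, which exports calcium across the plasma membrane, had log2 intensities of 5.99 and 6.42 at 0 h, 7.21 and 7.06 at 48 h, 9.11 and 8.98 at 96 h and 8.57 and 8.34 at 144 h. ATP2B4 was higher at 48, 96 and 144 h than at 0 h, by 0.93 ± 0.17, 2.84 ± 0.17 and 2.25 ± 0.17. ATP1B2, a beta subunit of the sodium pump, had log2 intensities of 6.04 and 6.32 at 0 h, 3.69 and 4.10 at 48 h, 3.60 and 3.71 at 96 h and 3.44 and 3.35 at 144 h, and it was lower at every later time, with a difference of -2.79 ± 0.16 at 144 h. FXYD6, a regulator of the sodium pump, had log2 intensities of 8.35 and 8.43 at 0 h, 10.28 and 10.43 at 48 h, 9.71 and 9.68 at 96 h and 9.97 and 10.35 at 144 h and was higher than at 0 h by 1.96 ± 0.14, 1.30 ± 0.14 and 1.77 ± 0.14. In each of these 3 genes, both arrays of every later time lay on the same side of the 0 h arrays. HVCN1, the voltage-gated proton channel, had log2 intensities of 4.29 and 4.52 at 0 h, 5.10 and 5.64 at 48 h, 5.30 and 5.45 at 96 h and 7.27 and 6.81 at 144 h and was higher at 144 h than at 0 h by 2.63 ± 0.21 (adjusted p = 4.1e-05). Its smaller excesses at 48 h (0.96) and 96 h (0.96) were lost as calls, at 48 h without 0 h replicate 1 or without 48 h replicate 2 (adjusted p from 0.0649 to 0.0745) and at 96 h without 0 h replicate 1 or without 96 h replicate 2 (adjusted p from 0.0528 to 0.0536). LRRC8B, a subunit of the volume-regulated anion channel, had log2 intensities of 3.98 and 3.88 at 0 h, 4.99 and 5.05 at 48 h, 3.99 and 3.95 at 96 h and 5.04 and 5.05 at 144 h and was higher at 48 h (1.09) and 144 h (1.12), and at 96 h its difference from 0 h was 0.04.

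**Figure D5:**
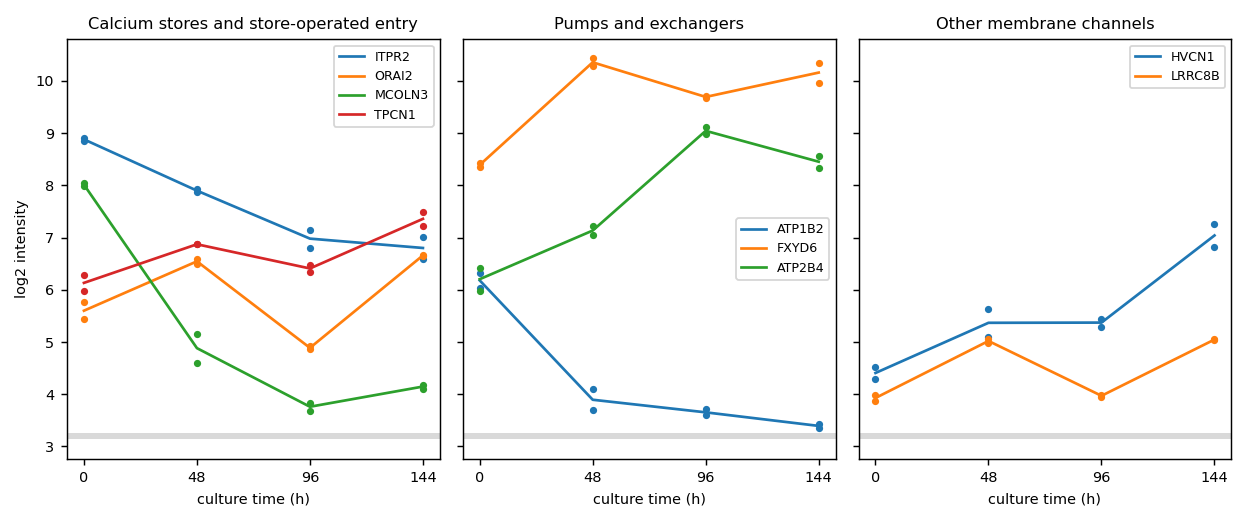
Log2 intensity (y axis) against culture time in hours (x axis) of 9 genes of calcium stores, ion pumps and other membrane channels; points are arrays, lines join time means, and the grey line marks the arrays' lower quartiles. MCOLN3 and ATP1B2 lie highest at 0 h, ATP2B4 is highest at 96 h, and ORAI2 and LRRC8B lie lower at 96 h than at 48 h or 144 h.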

How the data were processed

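RNA of cultured porcine granulosa cells, 2 samples at each of 4 times, was labelled with biotin and measured on Affymetrix whole-transcript arrays, 8 in all, per the labels' protocols. Values in the deposited table are log2 intensities from RMA (robust multi-array averaging), per the submitters' processing notes, and the software behind it is not given in the sources used here. RMA corrects background, gives all arrays a common distribution and summarises probes, so that it would hide a shift of most transcripts in 1 direction. The labels name no array batch, and any batch aligned with time cannot be told apart from it.

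Gene symbols are those of GEO's annotation of the platform and may be outdated. Of 27558 features, 11735 had 1 symbol, 239 repeated 1 symbol, 373 held several and 15211 had none. A feature annotated with P2RX4 and another gene was left out. By gene identifier 106 of the 119 genes matched a RefSeq gene of the same symbol, and 13 had no match.

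One limma model (limma 3.58.1, R 4.3.3; lmFit, eBayes) held all 8 arrays with 1 mean per time, on 4 residual and 3.98 prior degrees of freedom. The 6 pairwise comparisons used limma's two-sided moderated test and the 4 times its F test, both with Benjamini-Hochberg adjustment over all features and a threshold of 0.05. The model was also run on simulated data with independent normal errors and no shared array or batch effect. That run does not test the calls where such effects exist or where the arrays of a time are technical replicates. Genes named with all their values were those called by the F test with a range of time means of at least 1, the highest-mean gene of each of 14 classes, and genes of 3 related lists called at 144 h against 0 h with a difference of at least 1; CACNA1C and TRPM6 were added after their values were seen. The members, classes and lists were chosen with earlier results of these data known. Alternatives covered scaling, a filter on dim features, the variance prior, the features standing for a gene, the threshold, the samples in the fit, a replicate block and leaving out each array. Replicate numbers were not treated as pairs in the main fit.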

Additional observations from a re-analysis of the deposited data

How the results depend on the processing

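No called difference changed its sign under any alternative run, and no uncalled difference became called with the opposite sign. Sign changes of differences that stayed uncalled were not counted. Many settings could not change a sign, because they altered only the threshold, the adjustment, the variance prior or the arrays of other times. The differences of the named and other ion channel genes and their related genes, counted once per setting, gave 15378 values. Of these, 14684 kept their side of the threshold, 533 lost a call and 161 gained one. Of the 533, 61 were lost only through the threshold of 0.01 and 131 through the added 2-fold limit. Leaving out each array in turn gave these ranges of higher and lower genes: 16 to 19 and 10 to 22 at 48 h against 0 h, 17 to 26 and 13 to 28 at 96 h against 0 h, 13 to 17 and 13 to 23 at 144 h against 0 h, 5 to 21 and 11 to 18 at 96 h against 48 h, 4 to 11 and 4 to 17 at 144 h against 96 h, and 1 to 7 and 6 to 10 at 144 h against 48 h; the F test called 37 to 67. At an adjusted p under 0.01, the lower genes were 9 at 48 h and 14 at 96 h against 0 h and 5 at 144 h against 96 h, and the higher genes were 8 at 96 h and 2 at 144 h against 48 h. With at least 2-fold asked as well, higher and lower genes were 9 and 5 at 48 h, 6 and 7 at 96 h and 6 and 8 at 144 h against 0 h, 1 and 9 at 96 h against 48 h and 2 and 1 at 144 h against 96 h, 1 higher at 144 h against 48 h, and 23 by the F test; fewer calls follow from a stricter threshold. At 144 h against 48 h the 5 higher genes became 1 in a fit of the 4 arrays compared and 3 without the 96 h arrays, where fewer arrays entered the fit. All other counts, under the other normalizations, filters, variance prior and feature choices, stayed within 1.5 times the reported count.

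The difference of replicate 1 minus replicate 2 correlated between times at -0.04 to 0.19, highest between 48 h and 144 h. A low correlation cannot show that equal replicate numbers share no source, and the labels do not say. No pairing was therefore modelled in the main fit. With the replicate block, 10 of 13 counts were equal, the F test called 50, 16 genes were higher at 96 h against 48 h and 18 lower at 48 h against 0 h. With 2 arrays per time and an SE of a difference with a median of 0.14, small changes could not be resolved, and levels near the lower quartile have no detection call.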
